A study of Mus musculus with 2 samples.

Results

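Mdn1 (midasin, ENSMUSG00000058006) was examined in Prrc2a RIP-seq of mouse brain, an assay that pulls down a protein with its antibody and sequences the RNA recovered with it. Mdn1 is 1 of 21951 protein-coding genes of the annotation, and its members here are the peaks of either replicate that overlap its gene span by at least 1 bp. There were 43 such peaks among the 18129 of replicate 1 and 39 among the 18671 of replicate 2. The gene was selected on this number of peaks, so its counts are given as a description. Both samples came from whole brain of wild-type C57BL/6J mice, male and 4 weeks old, and the protocol describes 3 brains. The 2 replicates form a single condition, and no knockout, treatment or IgG list was analysed here. The labels do not say whether the replicates came from separate animals. The lists give each peak's position and its fold enrichment, the linear ratio of immunoprecipitate over control reported by the peak caller, with no strand and no read count. Read depth is therefore unknown, and fewer cells that use a gene, less RNA per cell and weaker binding cannot be told apart in bulk tissue.

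Mdn1 is among the longest polypeptides of the cell and belongs to the AAA family of ATPases, relatives of the dynein motor. Its ATPase modules lie in a row in a single chain and fold into a ring, which is followed by a long linker, a stretch rich in aspartate and glutamate, and a MIDAS domain at the carboxyl end. The MIDAS domain grips assembly factors that carry a ubiquitin-like domain, among them Nle1 and Wdr12, and ATP hydrolysis by the ring pulls them off precursors of the large ribosomal subunit in the nucleolus and nucleoplasm. Prrc2a, the protein that was pulled down, is a proline-rich RNA-binding protein studied as a reader of N6-methyladenosine (m6A), the internal mRNA mark deposited mostly within DRACH motifs such as GGAC.

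Mdn1 spans chr4:32657119-32775217 on the + strand of mm10 (GRCm38), and no other annotated gene overlaps that span. GENCODE M21 lists 11 transcripts, 2 of them coding. The longest has 102 exons, all coding in part or whole, and a coding sequence (CDS) of 16767 bases without the stop codon, or 5589 codons. Its exons make up 15.2% of the span. They are short, with a median of 147 bp (range 61 to 1257), and the introns between them have a median of 741 bp (range 73 to 5480).

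Exonic bases under the peaks of both replicates are shown for 4 of the 5 shared peaks with the largest mean fold enrichment. This mean takes the replicate 2 peak with the largest overlap, and the ranking depends on that choice. The peak over exons 27 to 29, with 6.21 in replicate 1, is left out by it. Its partner by largest overlap had 2.83, while its other partner, over exon 27, had 7.52. They were read from the GRCm38 sequence, and capitals mark each GGAC. The peaks over exons 4 and 5 and over exons 30 and 31 are shown by a single exon each, and exons 4 and 30 are not printed.
exon 5, chr4:32667272-32667464, + strand: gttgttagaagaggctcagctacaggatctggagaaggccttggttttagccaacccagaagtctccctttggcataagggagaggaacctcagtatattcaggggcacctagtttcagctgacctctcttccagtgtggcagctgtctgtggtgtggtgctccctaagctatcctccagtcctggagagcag
exon 3, chr4:32666393-32666617, + strand: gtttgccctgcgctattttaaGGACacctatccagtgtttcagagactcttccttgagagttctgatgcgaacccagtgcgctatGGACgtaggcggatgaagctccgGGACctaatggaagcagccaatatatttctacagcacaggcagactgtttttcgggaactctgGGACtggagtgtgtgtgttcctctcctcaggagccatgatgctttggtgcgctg
exon 31, chr4:32700348-32700475, + strand: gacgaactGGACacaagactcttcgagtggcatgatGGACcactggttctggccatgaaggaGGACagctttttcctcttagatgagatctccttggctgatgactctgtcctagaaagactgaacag
exon 36, chr4:32709358-32709566, + strand: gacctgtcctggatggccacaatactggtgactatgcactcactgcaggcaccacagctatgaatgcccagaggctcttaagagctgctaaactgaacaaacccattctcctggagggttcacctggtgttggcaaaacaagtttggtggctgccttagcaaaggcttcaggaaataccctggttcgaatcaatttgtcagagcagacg
Exon 3 held 4 copies of GGAC within 225 bases and exon 31 held 3 within 128 bases. Exons 5 and 36 held none, and their peaks were among the 5 highest by this mean. Exon 27, not printed, held 1.

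The remaining one of these 5 peaks, over exon 23, is shown whole as replicate 1 had it. It was the narrowest shared peak of replicate 1, whose Mdn1 peaks had a median width of 435 bp. Unlike most, it ran past its exon on a single side. Here capitals mark the exonic bases, and the lower case is the intron that follows.
exon 23 peak, chr4:32693541-32693744, + strand: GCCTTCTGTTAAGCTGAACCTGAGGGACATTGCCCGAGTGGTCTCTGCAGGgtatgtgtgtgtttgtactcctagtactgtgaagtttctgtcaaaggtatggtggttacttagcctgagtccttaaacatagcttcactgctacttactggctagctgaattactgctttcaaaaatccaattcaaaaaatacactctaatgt
Only 51 of its 204 bases were exonic, and they held 1 GGAC. Fold enrichment in this replicate 1 peak was 3.03. The replicate 2 peak that overlapped it was 445 bp wide and covered all 152 bases of exon 23. That wider peak had 8.02, the highest value in the gene.

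All peaks in the gene touched an exon. In replicate 1, 43 of 43 peaks were exonic and 0 intronic, with 42 touching the CDS and 1 lying wholly in the 3′ UTR. In replicate 2, 39 of 39 were exonic and 0 intronic, and all of them touched the CDS. Intron makes up most of the span, yet neither list placed a peak there without an exon base. Across the spans of all protein-coding genes, 25.4% of replicate 1 peaks and 7.40% of replicate 2 peaks had no exon base. The nearest peaks outside the gene lay over its neighbours. Replicate 1 had one 4168 bp before the span, in Casp8ap2 (fold 4.91), and one 28731 bp after it, in Ankrd6 (fold 2.75). Those of replicate 2 were in the same genes, 13108 bp before (fold 1.91) and 29698 bp after (fold 2.55).

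Most Mdn1 peaks recurred. Of the 43 replicate 1 peaks, 32 (74.4%) overlapped a replicate 2 peak by at least 1 bp and are called shared. Over all protein-coding genes, 61.3% of exonic replicate 1 peaks did so. Of the 39 replicate 2 peaks, 34 (87.2%) overlapped a replicate 1 peak, against 47.9% over all such replicate 2 peaks. These shares use the measure that selected the gene, and no test was made on them. The peaks were close to congruent: a median of 96.2% of a shared replicate 1 peak lay under its replicate 2 partner, and 8 of the 32 lay wholly within it. The lowest overlap, 28.4%, belonged to a 1691 bp replicate 1 peak over exons 54 to 58, in which replicate 2 had 2 separate peaks. The other replicate 1 peak with 2 partners covered exons 27 to 29.

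Peaks lay over exons and were mostly wider than them. Median width was 435 bp in replicate 1 and 422 bp in replicate 2, and a median of 44.2% and 48.4% of a peak was exonic. A single exon lay under 36 of 43 and 33 of 39 peaks. Among peaks over a single internal exon, 31 of 34 in replicate 1 and 25 of 33 in replicate 2 ran past both exon ends. Those that did so reached a median of 112 bp into the intron before and 128 bp into the intron after in replicate 1, and 115 and 122 bp in replicate 2. Among all Mdn1 peaks, 33 of 43 and 28 of 39 ran past their exons on both sides, and others, such as the exon 23 peak of replicate 1, did so on a single side. The 75 other genes with 10 or more shared exonic peaks were alike in this, with 84.5% of such peaks in replicate 1 and 78.6% in replicate 2 running past both ends. The shares over all other protein-coding genes were 54.2% and 56.8%. Peak ends are those of the caller, and whether reads reached into the introns was not tested.

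Along the CDS, bases under peaks of both replicates began at position 268, in exon 2, and ended at position 13099, in exon 79, with gaps between. None came after it. CDS bases 1 to 5589 held 17 shared peaks, bases 5590 to 11178 held 11 and bases 11179 to 16767 held 4. Peaks covered 57.0% of the CDS in replicate 1 and 50.6% in replicate 2 (53.8% ± 4.53, SD, n = 2). Both replicates covered 44.3%, at least one covered 63.3%, and 36.7% lay under no peak.

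**Figure D1:**
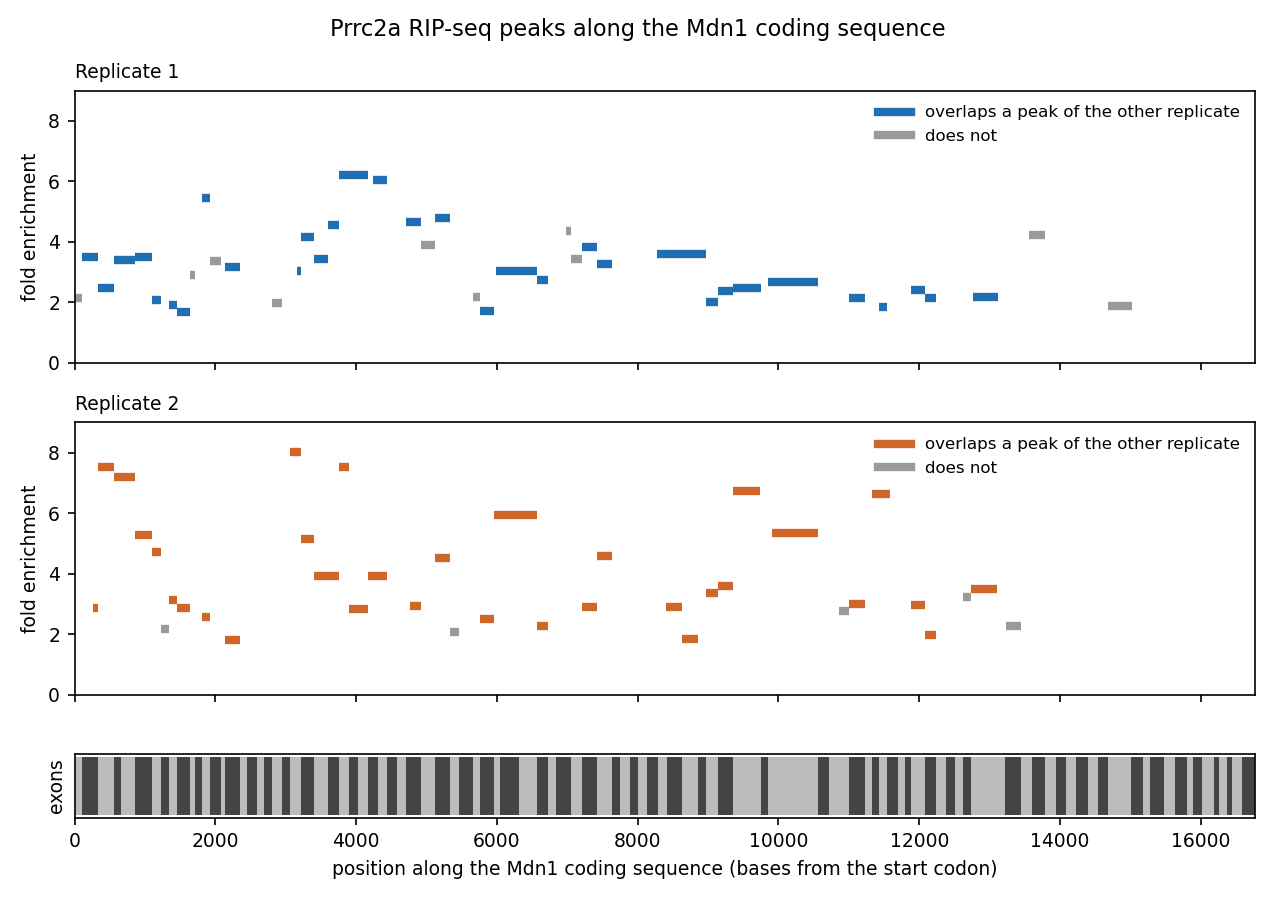
Fold enrichment of each Mdn1 peak (y axis) against its position along the CDS in bases (x axis), for replicate 1 (top) and replicate 2 (middle). Each bar runs from the first to the last coding base under a peak, grey bars have no partner in the other replicate, and the strip shows exon borders. Coloured bars end at base 13114 in replicate 1 and base 13099 in replicate 2. The replicate 1 peak wholly in the 3′ UTR is not drawn.

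The 5′ part of the transcript carried the first run of shared peaks. Over exon 1, which holds the start codon, replicate 1 alone had a peak (fold 2.12). From exon 2 to exon 7 the shared peaks followed each other without a skipped exon. Over exon 2 the values were 3.51 in replicate 1 and 2.86 in replicate 2, and over exon 3 they were 2.46 and 7.53. The peak over exons 4 and 5 had 3.41 and 7.19, and the one over exon 6 had 3.51 and 5.27. Over exon 7 the values were 2.08 and 4.73. Replicate 2 was thus the higher in all of this run except exon 2, where its peak was 200 bp wide and that of replicate 1 was 474 bp. Exon 8 had a peak in replicate 2 alone (2.16). Exons 9 and 10 followed with lower shared values, 1.92 and 3.14 over exon 9 and 1.66 and 2.86 over exon 10. Replicate 1 turned to the higher side over exon 13, with 5.45 against 2.58, and over exon 16, with 3.15 against 1.80.

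Exons 23 to 31 carried the second run, and the highest values of both replicates. After exon 23 came exon 24 with 4.14 and 5.14, exon 25 with 3.42 and 3.93, and exon 26 with 4.55 and 3.91. Over exons 27 to 29 replicate 1 had its highest Mdn1 value, 6.21, in a single peak of 1029 bp. Replicate 2 split that stretch into a peak of 7.52 over exon 27 and one of 2.83 over exons 28 and 29. The peak over exons 30 and 31 had 6.04 and 3.91. Every exon from 23 to 31 therefore held coding bases under peaks of both replicates. Exon 34 followed with 4.66 and 2.94, and exon 36 with 4.78 and 4.52, the most even of the 5 highest pairs. Exon 35, between them, had a peak in replicate 1 alone (3.90).

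From exon 41 on, replicate 2 was mostly the higher of the pair. Over exons 41 to 43 the values were 3.02 and 5.93, over exon 48 they were 3.81 and 2.91, and over exon 49 they were 3.28 and 4.57. The large exons 61 and 63, of which replicate 1 peaks covered 388 and 703 coding bases, had 2.48 and 6.72 and 2.68 and 5.35. Replicate 2 was more than 2-fold above replicate 1 in both. Exon 69 had 1.83 and 6.64, the widest gap between replicates in the gene, in a replicate 2 peak of 944 bp that ran from exon 68 to exon 70. The last shared peaks were over exon 73 (2.40 and 2.95), exon 74 (2.13 and 1.96) and exon 79 (2.16 and 3.48). Median replicate 1 fold over the shared peaks was 3.51 in CDS bases 1 to 5589, 2.68 in bases 5590 to 11178 and 2.14 in bases 11179 to 16767. The replicate 2 medians were 3.91, 3.35 and 3.21. Both replicates thus had their highest median at the 5′ end and their lowest at the 3′ end, over 17, 11 and 4 peaks.

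No base after CDS position 13099 lay under peaks of both replicates. The remaining 3668 bases, 21.9% of the CDS, belong to exon 79 and the 23 exons after it. Replicate 1 had 3 peaks there, over exons 81 and 82 (fold 4.21), exons 89 and 90 (1.89) and the 3′ UTR in exon 102 (1.78). Replicate 2 had 1, over exon 80 (2.28). Their positions did not overlap. Median exon length was 156 bp in these exons and 147 bp in exons 1 to 79. Internal exons of 200 bp or more numbered 2 of 22 after exon 79 and 20 of 78 up to it, and the part of exon length in the absence of shared peaks was not tested. Among the 22 genes with a CDS of at least 10 kb and 10 or more shared exonic peaks, 6 including Mdn1 had no base under both replicates in the last 20% of the CDS, the others being 4932438A13Rik, Syne1, Macf1, Vps13d and Birc6.

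**Figure D2:**
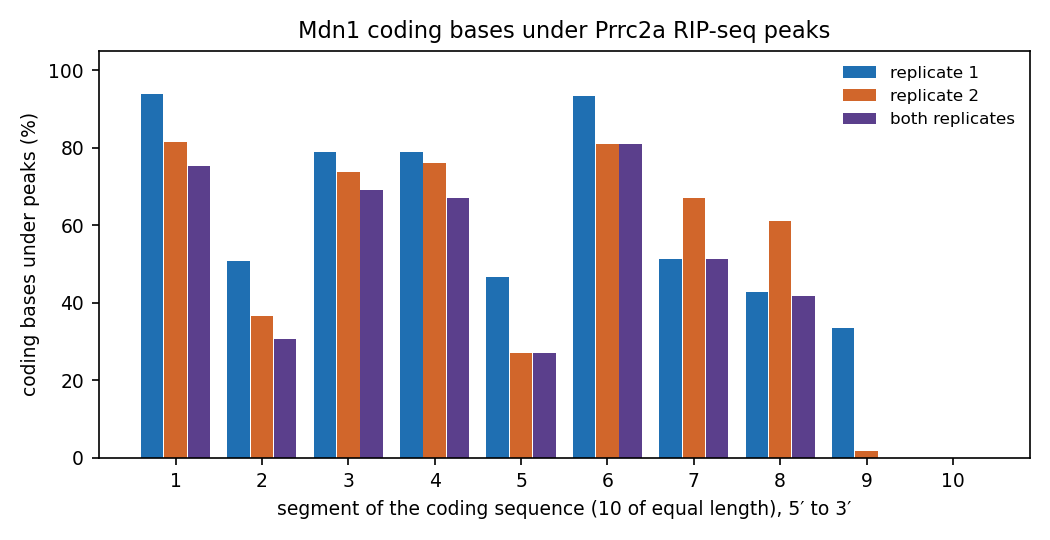
Percent of Mdn1 coding bases under peaks (y axis) in each of 10 equal segments of the CDS from 5′ to 3′ (x axis), for replicate 1, replicate 2 and the bases under both. Shared coverage was highest in segment 6 (80.8%) and segment 1 (75.3%), lower in segments 2 (30.7%) and 5 (27.1%), and 0 in segments 9 and 10.

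In both replicates, segments 2 and 5 had lower coverage than the segments on either side of them. Segment 2 had 50.7% of its bases under replicate 1 peaks and 36.7% under replicate 2 peaks, and segment 5 had 46.7% and 27.1%. Replicate 1 was about as low in segments 7 (51.2%) and 8 (42.8%), where replicate 2 had 67.1% and 61.2%. Segment 9 was the one where the replicates differed most, with 33.5% in replicate 1 and 1.79% in replicate 2. In segment 10 both were at 0.

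Which exons carried peaks went with exon length. Of the 102 exons, 40 touched peaks of both replicates, 15 of replicate 1 alone, 7 of replicate 2 alone and 40 of neither. Median length was 191 bp in exons with both and 122 bp in exons with neither. Among internal exons under 100 bp, 1 of 11 touched peaks of both replicates. The count was 12 of 45 from 100 bp to under 150 bp, 9 of 22 from 150 bp to under 200 bp, and 18 of 22 (81.8%) at 200 bp or more. The share thus rose in each step of length. The 75 other genes had the same order, from 8.25% of exons under 100 bp to 69.1% of those at 200 bp or more. Exons of one transcript are not independent replicates, and the relation is a description. The caller reported no peak narrower than 200 bp in either list.

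**Figure D3:**
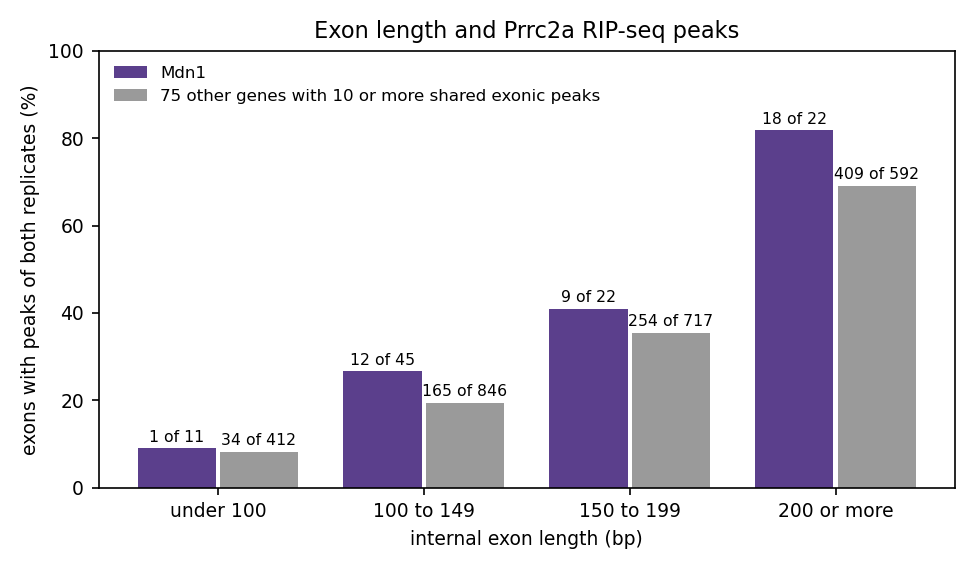
Percent of internal exons that touch peaks of both replicates (y axis) by exon length in bp (x axis), in Mdn1 and in the 75 other genes with 10 or more shared exonic peaks; counts stand above the bars. In Mdn1 the share goes from 9.09% under 100 bp to 81.8% at 200 bp or more.

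The shared peaks of Mdn1 overlap by definition, and when paired by largest overlap their fold enrichment did not rank alike in the 2 replicates. Median fold over all Mdn1 peaks was 3.02 in replicate 1 (range 1.66 to 6.21) and 3.21 in replicate 2 (range 1.80 to 8.02). The medians of the whole lists were 2.84 and 2.63. Over the 32 shared peaks, each set against the replicate 2 peak with the largest overlap, the medians were 3.02 and 3.54. Replicate 2 was the higher in 20 pairs and replicate 1 in 12. The log2 ratio of replicate 1 over replicate 2 ran from -1.86 to 1.13 around a median of -0.49, with an SD of 0.78. Over all 7317 shared exonic peaks of protein-coding genes the median was -0.26 and the SD 0.52. The Spearman correlation of the values in both replicates was -0.01 across the 32 pairs. Across the 7317 pairs, which come from many genes, it was 0.55. Both values are descriptions across peaks of the same 2 libraries, and the Mdn1 peaks share a transcript. The Mdn1 value rests on the pairing. The highest replicate 1 peak, with 6.21 over exons 27 to 29, was set against 2.83 and not against its other partner, with 7.52. Some pairs also compare unlike stretches, as over exon 23, with 51 exonic bases in replicate 1 and 152 in replicate 2. Other pairings were not tested for the correlation.

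**Figure D4:**
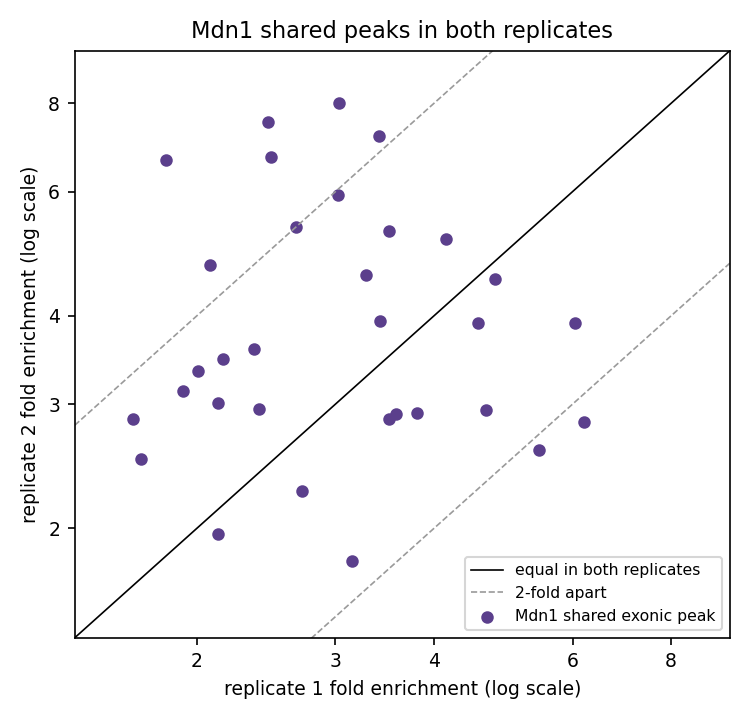
Replicate 1 fold enrichment (x axis, log scale) against replicate 2 fold enrichment (y axis, log scale) of the 32 shared Mdn1 peaks, one point a peak. The replicate 2 value is that of the partner with the largest overlap. The solid line marks equal values and the dashed lines a 2-fold difference, and 9 of the 32 points lie outside the dashed lines.

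Of the 32 pairs, 23 (71.9%) were within 2-fold of each other, against 92.2% of all 7317. Only 2 pairs, over exons 24 and 36, reached a fold of 4 in both replicates, which is 6.25% against 6.45% of all. Among the 24 genes with 15 or more shared exonic peaks, Mdn1 had the largest SD of the log2 ratio, 0.78 against a median of 0.54 (range 0.29 to 0.78). Notch1 was close to it with 0.76. With partners taken by largest overlap, the pair over exons 27 to 29 had the highest log2 ratio in Mdn1, 1.13, and counts as beyond 2-fold. Its other partner, with 7.52, was not used, and whether the place of Mdn1 holds with that partner was not tested. The Spearman correlation of Mdn1 was not the lowest of the 24, since Csmd3 (-0.28), Dmd (-0.24), Zbtb20 (-0.20), Fbn2 (-0.11) and Fras1 (-0.02) were below it. The median of the 24 was 0.34 and the highest was Macf1 (0.88). Part of the replicate 2 scale was coarse, as 11 of its 39 Mdn1 peaks had a fold value that 10 or more peaks of its list shared to the last digit. This was so for 1 of the 43 replicate 1 peaks. The same share over the whole lists was not counted, and nothing particular to Mdn1 is read from it.

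Peaks without a partner had lower median values than shared peaks in both lists. The 11 such peaks of replicate 1 had a median fold of 2.89 (range 1.78 to 4.35), close to the 3.02 of its shared peaks. The 5 of replicate 2, over exons 8, 37, 65, 78 and 80, had a median of 2.28 (range 2.08 to 3.21), against 3.54 for its partner values. The highest peak without a partner was in replicate 1 over exon 46 (4.35), a peak of 206 bp with 71 exonic bases.

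The motif content of the Mdn1 peaks was read from the exonic bases of each shared peak on the + strand, as a description. GGAC was present in 21 of 32 shared peaks (65.6%), GGACT in 6 (18.8%) and the DRACH motif, of which GGACT is one form, in 32. In all 7317 shared exonic peaks the shares were 77.9%, 43.0% and 97.6%. The Mdn1 peaks had fewer exonic bases, a median of 212 against 376, and a lower GC content, a median of 48.5% against 53.4%. Per kb of exonic sequence the number of GGAC was 4.64 in both. Within the CDS, GGAC occurred 71 times, or 4.23 per kb. Bases under both replicates held 4.98 per kb, bases under a single replicate 2.51 and bases under none 4.23. Up to exon 79, the last with a shared peak, 24 of 40 exons with peaks of both replicates held a GGAC and 8 of 23 exons with none did. The exons with peaks were also the longer ones, with medians of 191 and 114 bp, and the part of length in this difference was not tested. Over all exons, 15 of 40 exons with no peak held a GGAC. Segments 9 and 10 of the CDS, without shared coverage, held 7 and 8 GGAC, against 4 to 12 in the segments before them. A GGAC in these letters is not a measured m6A site.

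Among protein-coding genes, 2629 of 21951 (12.0%) had a shared exonic peak. Mdn1, with 32, was the third of them by number, below Csmd1 (51) and Fras1 (38) and above Csmd3 (27). Because long genes have more room for peaks, the comparison was also made among the 111 genes with a CDS of at least 10 kb, of which 60 (54.1%) had a shared exonic peak. Their median was 1. Per kb of CDS, Mdn1 had 1.91 shared peaks and stood in place 4, after Csmd1 (4.77), Fras1 (3.16) and Csmd3 (2.43). Csmd2 (1.75), Lrp1b (1.67), Fat3 (1.54) and Dmd (1.45) came next. The 5 closest to Mdn1 by this measure were Csmd2, Lrp1b, Fat3, Dmd and Csmd3. By the share of coding bases under both replicates, 44.3%, it was in place 12. Fat3 (89.3%) and Fat4 (84.3%), with 21 and 14 shared peaks, led that order. Of the 13 genes with a longer CDS than Mdn1, 7 had a shared exonic peak and none more than 17.

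**Figure D5:**
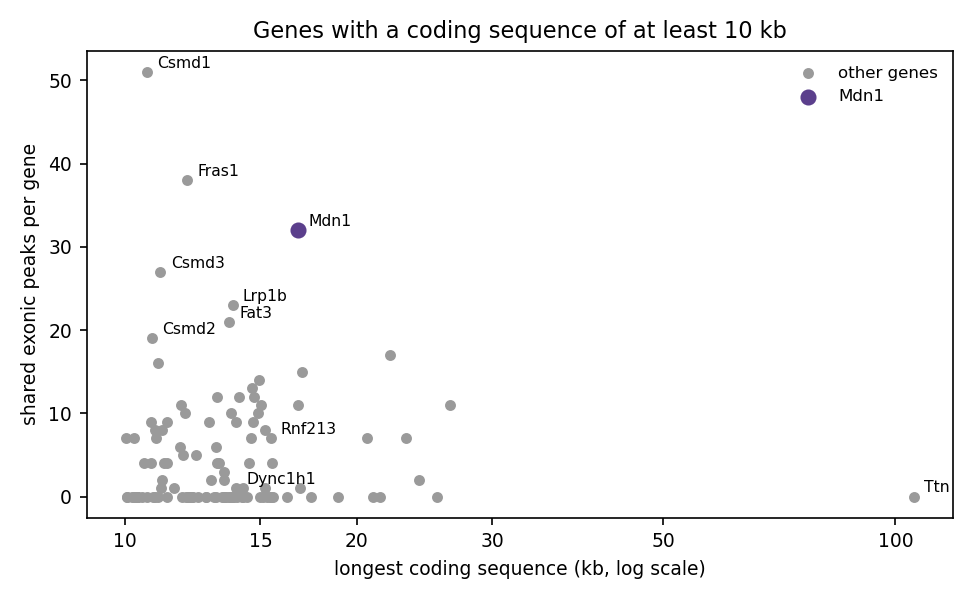
Number of shared exonic peaks (y axis) against the length of the longest CDS in kb (x axis, log scale) for the 111 genes with a CDS of at least 10 kb, one point a gene. Mdn1 has 32 shared peaks, and the genes with a longer CDS have at most 17.

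An all-exonic pattern was not particular to Mdn1 among genes with many peaks. In 47 genes both replicates had 15 or more exonic peaks, and 26 of these, Mdn1 included, had no intronic peak in either list. Csmd1, by contrast, had 62 intronic peaks in replicate 1 and 0 in replicate 2.

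Other genes of ribosome assembly were read from a list of 40 factors, most of which act on the large subunit and some on the small one. In the annotation 39 were matched, and 3 of them (7.69%) had a shared exonic peak, against 12.0% of all protein-coding genes. Nol9, a kinase that acts in processing of the internal transcribed spacer, had 2 shared peaks, both outside its CDS, with folds of 1.86 and 2.63 in replicates 1 and 2 for one and 2.84 and 3.27 for the other. Utp20 had 1 (1.97 and 3.51), as did Heatr1 (2.49 and 2.87), both large proteins of early nucleolar ribosome assembly that are known from small-subunit processing. An exonic peak in either replicate was found in 8 of the 39 (20.5%), against 24.0% of all protein-coding genes. Both shares were near the background, and nothing is read from them. The median CDS of the list was 1917 bp, far shorter than that of Mdn1.

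Proteins built like Mdn1, with AAA modules in a row in a giant chain or a related fold, are closer in length, with a median CDS of 13386 bp. Of 19 such genes, 5 (26.3%) had a shared exonic peak, and the 5 together had 15. All 5 were among the 18 of the list with a CDS of at least 10 kb, the class in which 54.1% of genes had one. Rnf213, an AAA ubiquitin ligase, had 7 over a CDS of 15456 bp, or 0.45 per kb. Its values included 3.95 and 10.9 in replicates 1 and 2, and its peak over 1700 coding bases had 4.20 and 4.36. Dnah9 had 3, Dnah11 and Dync2h1 had 2 each and Dync1h1 had 1, all of them dynein heavy chains. Dync1h1, the cytoplasmic dynein motor, had 17 exonic peaks in replicate 2 and 1 in replicate 1, and Dync2h1, the ciliary retrograde motor, had 4 and 17. The other members of the list had 0 shared peaks, and 10 had no exonic peak. No member of either list had as many shared peaks per kb of CDS as Mdn1, which was itself selected on its number of peaks. Of 10 brain marker genes 1 (Grin2b, with 13 shared peaks), and of 7 markers of other tissues 0, had a shared exonic peak, against 12.0% of all protein-coding genes. Counts this close to the background do not check the labelled tissue. A peak list gives enrichment and not RNA level, so a marker without a peak is not a marker without RNA.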

How the data were processed

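Prrc2a RIP-seq was performed on 2 replicates. Per the methods, the authors trimmed reads with Cutadapt and Trimmomatic, aligned them to mm10 with TopHat, kept those with mapping quality 20 or more, and ran MACS2 on each replicate separately, without model building and at FDR below 0.05. The submitters' processing notes name TopHat2 2.0.9 and MACS2 2.0.10, and the methods name other versions. The deposited fold enrichment is a linear ratio of immunoprecipitate over control, and the control library of this call is not given in the sources used here. Positions count both ends from 1.

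Peaks were intersected with GENCODE M21 in Python 3.11.15 with numpy 2.4.6 and scipy 1.17.1. Sequences were read from the RefSeq GRCm38 genome with pysam 0.24.0 and samtools 1.23.1, and figures drawn with matplotlib 3.10.9. A peak was exonic with 1 exon base of any transcript, and shared with 1 bp of overlap. Exon numbers and CDS positions refer to the transcript with the longest CDS. GGAC was searched on the sense strand. DRACH stands for A, G or T, then A or G, then AC, then A, C or T. The 111 long genes had a CDS of at least 10 kb. Genes named were members of the pathway, AAA and marker lists, the genes closest to Mdn1 by shared peaks per kb and those with the most shared peaks. Mdn1, its rule and all lists were chosen with earlier results of these data known. Genes listed by replicate correlation, by the last 20% of the CDS and by intronic peaks, and the comparison of exon length and flanks with other genes, were added after the values were seen. The interval functions were tested on simulated peaks. No test compared groups, as there was 1 condition. Read totals were not used here, so depth is unknown and neither intervals nor detection limits could be computed.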

Additional observations from a re-analysis of the deposited data

How the results depend on the processing

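Of 31 alternative values, 16 moved by 1.5 times or less (for counts and ranks) or by less than the SD of the 2 replicates. A fold enrichment of at least 4 left a mean of 11 exonic peaks per replicate in place of 41, 3 shared peaks when any overlapping replicate 2 peak could reach it, and 3.16% of coding bases under both replicates. Coding coverage was 63.3% under either replicate, and 50.6% to 57.0% when a replicate was left out. The median of the mean fold of the shared pairs was 3.74, and 3.02 to 3.54 in single replicates. With a replicate left out there were 39 to 43 exonic peaks. The place of Mdn1 by peaks per kb went from 4 to 6 and 7 with a replicate left out, to 12 by share of coding bases and to 21 among the 748 genes with a CDS of at least 5 kb. The share of peaks with GGAC was 62.5% over exonic bases under both replicates and 55.8% to 59.0% over all exonic peaks of single replicates, and GGACT gave 18.8% and DRACH 100%. An overlap of 50% of both peaks kept 27 shared peaks, and 28 had their midpoint in an exon. No paired analysis was possible because there was 1 condition. Limits are the unknown depth and control library and the 2 replicates.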
